A study of Mus musculus with 40 samples.

Results

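Splicing factor genes were followed in single cells of the mouse testis that were named by spermatocyte stage. The set comprised the serine/arginine-rich (SR) genes Srsf, the heterogeneous nuclear ribonucleoprotein (hnRNP) genes Hnrnp, the genes of the SF3a and SF3b complexes, and the Snrp genes for proteins of the small nuclear ribonucleoproteins (snRNPs). Members were taken by symbol, as rows named Srsf or Snrp, Hnrnp, Sf3a or Sf3b, with a summed count of at least 20 over all 40 cells. The set was chosen with earlier results of these data known. Of the 55492 genes in the table, 53 matched by symbol and 50 of these reached the minimum. They were 10 of 11 SR genes, 19 of 20 hnRNP genes, 9 of 9 SF3 genes and 12 of 13 Snrp genes.

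The spliceosome removes introns from pre-mRNA and is built from snRNPs, each an RNA with a set of proteins. SF3a and SF3b belong to the U2 snRNP, which recognises the branch site, and the Sm proteins encoded by several Snrp genes form a ring around the snRNAs. SR proteins mostly favour, and hnRNP proteins often oppose, the use of nearby exons and splice sites. Meiotic cells of the testis are known for a large repertoire of alternative transcripts, and spermatocytes silence the X chromosome during the pachytene stage.

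Each library was made from 1 cell, by a modified STRT-seq protocol that counts the 3' ends of transcripts. There were 20 libraries named Pachytene and 20 named Metaphase I, from C57BL/6J mice aged 6 to 8 weeks. Spermatocytes came from cell fractions separated by elutriation, and the protocol adds 4 µM okadaic acid, an inhibitor of the phosphatases PP1 and PP2A, for 5 h to drive cells into metaphase I. All 40 libraries carry the same protocol, and treatment of the Metaphase I cells was read from their name. Drug-free culture of the Pachytene cells is a point not given in the sources used here, so stage, drug and culture time cannot be told apart. Since no label names an animal or culture, each group of 20 cells counts as 1 sample, and the groups were compared without a test. The groups' summed totals were 17663240 counts for Pachytene and 13709617 for Metaphase I, and single cells had between 165048 and 2325564.

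Some libraries stood apart. In 8 of them, 4 of each group (Pachytene replicates 2, 3, 7 and 19, Metaphase I replicates 3, 7, 17 and 19), X-linked genes held over 0.3% of counts, against at most 0.121% in the other 32. The 14 elongating spermatid markers summed to 5727 CPM (counts per 1000000) or more in 5 of those 8 cells. Metaphase I replicate 19 held 15145 CPM of Sertoli cell markers, a level of at most 220 CPM in the other Metaphase I cells. Metaphase I replicate 13, the deepest cell of its group, held 10.9% of the group's counts. Of the 15 genes on the spermatocyte list, Sycp3, a synaptonemal complex protein, and Piwil1, a piRNA-binding protein, were detected in every cell, and H2al2a was at 0. The lowest levels of Sycp3 and Piwil1 were 6.84 and 8.54 CPM, both in Pachytene replicate 19. Their medians were 42.4 and 23.1 CPM in the 8 libraries over 0.3% X-linked counts, against 145 and 164 CPM in the other 32. Detection alone thus does not name a cell. The cyclin B1 gene Ccnb1, which drives entry into M phase, ranged from 4.59 to 404 CPM in the Pachytene cells and from 3.92 to 505 CPM in the Metaphase I cells, so its level did not separate the names. Metaphase I replicates 14, 13, 1 and 15 had the lowest Ccnb1 of their group, at 3.92, 4.01, 4.15 and 7.96 CPM, and the 4 highest summed levels of the splicing genes in that group. For several results that rest on these libraries, values without some of them are also given. The 4 Metaphase I cells with the lowest Ccnb1 were not left out together.

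The upstream 250 bases of 4 members are shown for the pattern described further on. Among 10 members whose window holds no annotated exon, Hnrnpa2b1 and Hnrnph1 had the 2 highest Spearman correlations over cells with the summed level of the other members (0.95 and 0.79 over 40 cells), and Hnrnpab and Hnrnpa1 the 2 lowest (-0.43 and -0.21). Some members outside these 10 had values higher than Hnrnph1 or lower than Hnrnpab, and over 32 cells Hnrnpab and Hnrnpa1 stood at -0.02 and -0.03. The windows are from RefSeq on GRCm38.p6, each ends at the base before the gene's RefSeq start, and each is written 5′ to 3′ on the gene's own strand. Capitals mark matches, read on either strand, to the CCAAT box, whose letters are its name, and to the GC box, GGGCGG. Hnrnpa2b1 lies at chr6:51469895-51470144 on the minus strand, Hnrnph1 at chr11:50376740-50376989 on the plus strand, Hnrnpa1 at chr15:103240147-103240396 on the plus strand and Hnrnpab at chr11:51606882-51607131 on the minus strand.
Hnrnpa2b1: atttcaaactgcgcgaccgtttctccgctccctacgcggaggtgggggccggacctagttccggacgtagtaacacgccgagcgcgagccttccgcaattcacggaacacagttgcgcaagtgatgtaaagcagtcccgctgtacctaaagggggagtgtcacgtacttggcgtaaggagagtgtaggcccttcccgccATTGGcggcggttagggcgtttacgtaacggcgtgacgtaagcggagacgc
Hnrnph1: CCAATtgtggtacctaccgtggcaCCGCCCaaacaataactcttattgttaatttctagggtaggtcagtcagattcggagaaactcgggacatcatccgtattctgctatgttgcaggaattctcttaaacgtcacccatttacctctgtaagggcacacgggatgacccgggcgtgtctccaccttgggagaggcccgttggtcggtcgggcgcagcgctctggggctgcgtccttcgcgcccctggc
Hnrnpa1: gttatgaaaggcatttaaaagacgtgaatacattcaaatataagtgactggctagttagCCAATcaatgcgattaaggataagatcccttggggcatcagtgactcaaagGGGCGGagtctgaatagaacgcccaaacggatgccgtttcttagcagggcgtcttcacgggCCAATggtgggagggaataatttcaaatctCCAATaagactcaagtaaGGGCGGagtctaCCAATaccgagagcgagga
Hnrnpab: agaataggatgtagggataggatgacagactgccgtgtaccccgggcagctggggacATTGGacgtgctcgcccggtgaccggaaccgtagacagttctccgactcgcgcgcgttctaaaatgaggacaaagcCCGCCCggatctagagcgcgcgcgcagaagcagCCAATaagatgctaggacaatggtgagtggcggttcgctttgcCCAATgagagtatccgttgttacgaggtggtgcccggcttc

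CCAAT boxes stood in all 4 windows, in 1 copy in Hnrnpa2b1 and Hnrnph1, 3 in Hnrnpab and 4 in Hnrnpa1. A GC box stood in the windows of Hnrnph1, Hnrnpa1 and Hnrnpab. The 43 members matched by symbol had 57 such windows. CCAAT was in 45.6% of them, against 33.8% of all 32851 RefSeq windows, and GGGCGG in 70.2% against 32.7%. The ETS motif CCGGAAG, also on either strand, was in 33.3% against 6.91%. The TATA box, TATAAA, was in 8.77% against 12.4%. The cAMP response element TGACGTCA was in 3.51% against 1.55%. These shares are not matched for base composition, and several windows belong to 1 gene.

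Most of the 50 genes were read in every cell: 35 had a count in all 40 cells, and a cell held counts of between 43 and 50 of them. The matching share over all genes was not taken. Hnrnpa2b1, an RNA-binding protein of the hnRNP core, had the highest level of the set. It ranged from 101 to 1289 CPM in Pachytene cells, with a median of 391 CPM, and from 134 to 1831 CPM in Metaphase I cells, with a median of 409 CPM. The groups overlapped over nearly their whole range. Hnrnpf, a G-rich RNA binder, came next and was the most even, with a coefficient of variation over cells of 0.22, medians of 361 and 362 CPM, and a range over all cells of 162 to 549 CPM. Snrpd2, an Sm core protein, had medians of 294 and 259 CPM, and Snrpc, a U1 snRNP protein, of 309 and 294 CPM. Divided by exonic length, the levels of Snrpd2, Hnrnpf and Hnrnpa2b1 still ranked highest, at 123, 120.5 and 89.9 CPM per kilobase, although 3' tags need no such division.

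**Figure D1:**
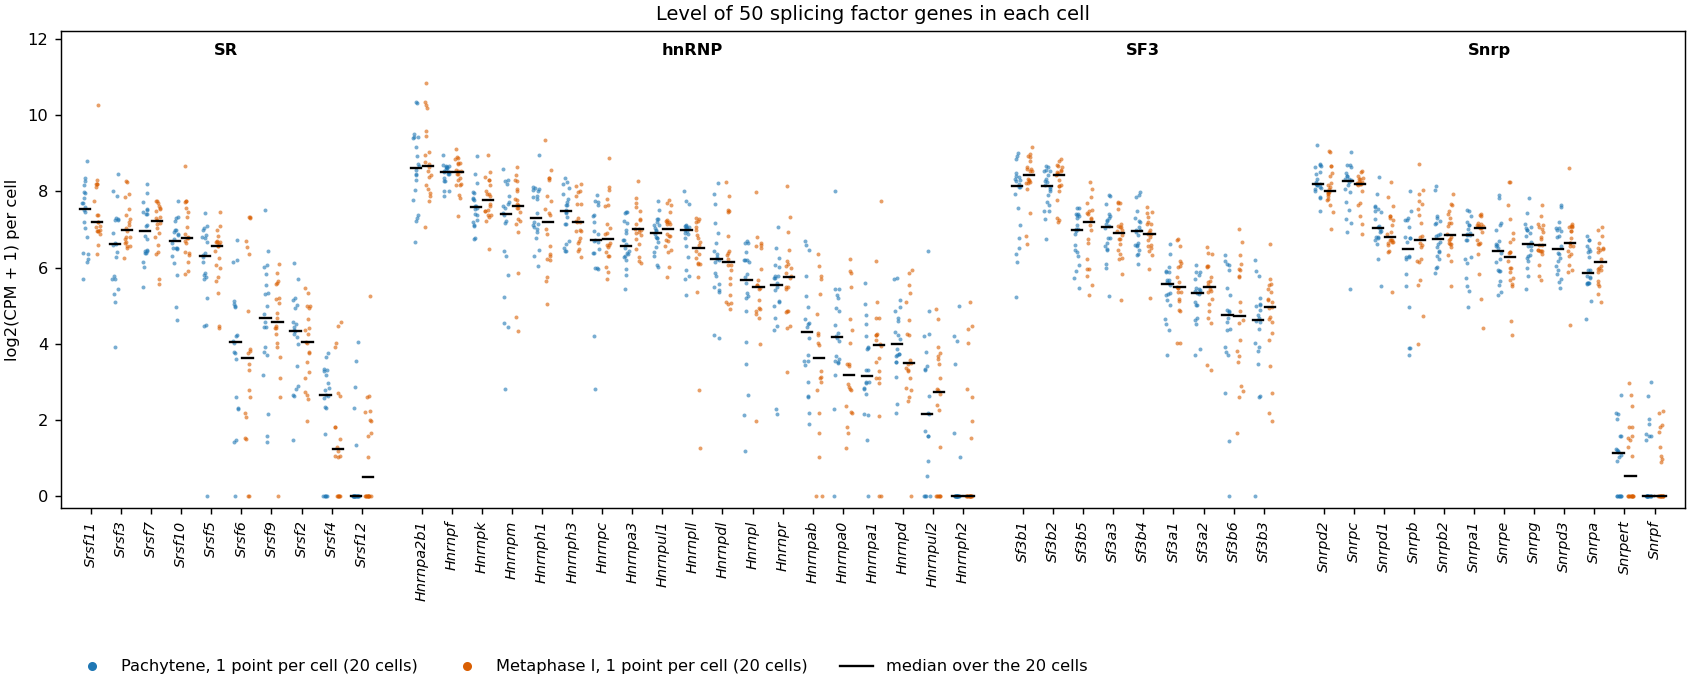
Level of each of the 50 genes in each cell, as log2(CPM + 1), by family and, within a family, by mean level; each point is 1 cell (20 Pachytene, 20 Metaphase I) and black bars are medians over the 20 cells. The 2 groups overlap for every gene, and the spread between cells of 1 group differs from gene to gene.

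The summed level of the 50 genes differed more between cells of 1 group than between the groups. In Pachytene cells it ranged from 3542 to 8976 CPM with a median of 5379 CPM, and in Metaphase I cells from 3326 to 10220 CPM with a median of 5455 CPM. Of all counts, the genes held 0.541% in Pachytene and 0.655% in Metaphase I, a fold of 1.21 (95% counting interval 1.20 to 1.22), or 0.27 on the log2 scale. All counting intervals given here cover counting error only, not the spread between cells or animals. Without Metaphase I replicate 13, which held 17.0% of the genes' Metaphase I counts, the log2 value was 0.17, and between the groups' medians of the summed level it was 0.02. By family, the folds of the summed level were 1.26 for SR genes, 1.25 for hnRNP genes, 1.23 for SF3 genes and 1.10 for Snrp genes. Medians over cells (Pachytene, then Metaphase I) were 654 and 681 CPM for SR genes and 1081 and 1218 CPM for SF3 genes. The Metaphase I median was the lower for hnRNP genes (2312 and 2110 CPM) and Snrp genes (1510 and 1439 CPM). Without the 8 libraries over 0.3% X-linked counts, it was the higher only for SF3 genes (1117 and 1314 CPM).

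Log2 ratios of single genes were taken as Metaphase I over Pachytene on summed counts, with a pseudocount of 1 CPM. The median ratio of the 50 genes was 0.21, against -0.00 over all 16174 genes with 20 counts or more. It was 0.19 for SR genes, 0.21 for hnRNP genes, 0.30 for SF3 genes and 0.11 for Snrp genes. Ratios lay above 0 for 39 of the 50, where 49.9% of all genes did. Only Srsf6 was over 2-fold higher in Metaphase I, and no gene was over 2-fold lower. The same thresholds were passed by 8.49% of all genes upward and 9.81% downward, and by 0.838% and 4.86% of genes with 1000 counts or more. Without the 8 libraries over 0.3% X-linked counts, Srsf6 was again the 1 member over 2-fold higher and none was lower, beside 5.65% and 3.69% of all genes. The counting interval of the fold lay above 1 for 31 of the 50 genes and below 1 for 5, where it did so for 33% and 32.3% of all genes. Such intervals narrow as counts rise, and these all-gene shares were not matched for level, so the 2 sets are not directly comparable. Omitting each of the 40 libraries in turn, the ratio kept its sign in every case for 36 of the 50 genes, 29 above 0 and 7 below. The matching share over all genes was not taken, so this count does not set the members apart. The 14 genes whose sign turned under at least 1 omission were Srsf4, Srsf9, Srsf11, Srsf12, Hnrnpa0, Hnrnpa1, Hnrnph2, Hnrnph3, Hnrnpul2, Sf3a3, Snrpa1, Snrpd1, Snrpd2 and Snrpg. With medians over cells in place of summed counts, 25 of the 50 ratios lay above 0 and their median was 0.00. The median over all genes was then 0, and their share above 0 was not taken.

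**Figure D2:**
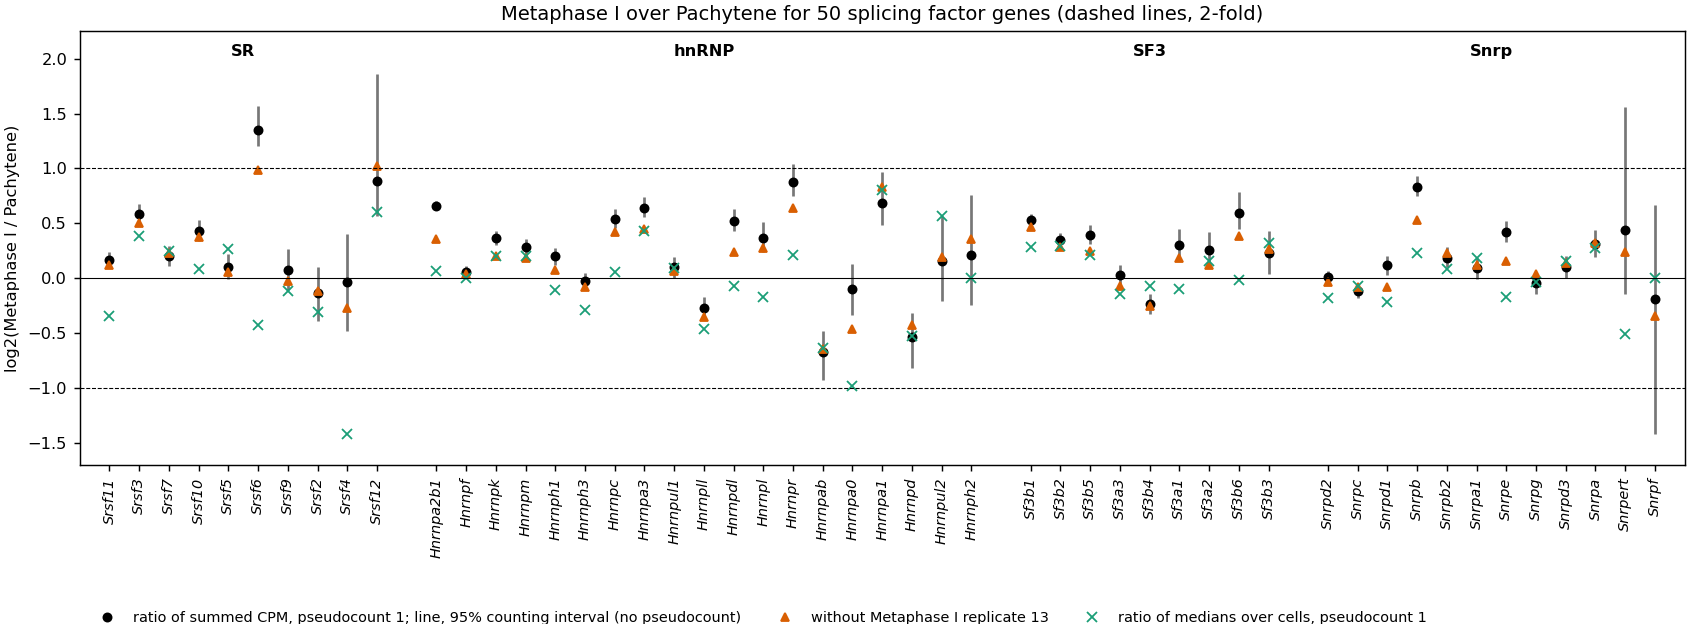
Log2 ratio of Metaphase I over Pachytene for each of the 50 genes, in the order of the plot of levels: black points are ratios of summed CPM with a pseudocount of 1, vertical lines 95% counting intervals without a pseudocount, triangles the ratio without Metaphase I replicate 13 and crosses the ratio of medians over cells. Srsf6 lies at 1.35 from summed counts, 0.99 without replicate 13 and -0.42 from medians.

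Among SR genes, Srsf6 (chr2:162931528-162937121, plus strand) had 386 counts over the Pachytene cells and 783 over the others. Its level ranged from 0 to 104 CPM in Pachytene cells (median 15.6) and from 0 to 161 CPM in Metaphase I cells (median 11.4). The groups overlapped apart from Metaphase I replicates 13, 1 and 18, which lay above every Pachytene cell, and the Metaphase I median was the lower. The log2 ratio of 1.35 (fold 2.61, counting interval 2.31 to 2.96) rested most on a few cells. Of the 783 counts, Metaphase I replicates 13, 1, 15 and 14, those with the lowest Ccnb1, gave 241, 155, 105 and 83. Replicates 19 and 18 gave 73 and 53. By level, replicates 13, 1, 18 and 19 stood highest, at 161, 161, 158 and 104 CPM, and replicate 13 gave 30.8% of the group's Srsf6 counts. Without replicate 13 the ratio was 0.99, under 2-fold.

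Srsf11, which carries an arginine/serine domain and was the SR gene with the highest level, had medians of 186 CPM in Pachytene and 146 CPM in Metaphase I. One cell, Metaphase I replicate 18, reached 1235 CPM. The ratio from summed counts was 0.17, and it was -0.01 without that cell. Srsf3, the smallest SR protein, had medians of 96.8 and 126 CPM, with ranges of 14.1 to 348 CPM and 75.4 to 308 CPM, and a ratio of 0.59. No Metaphase I cell was as low in Srsf3 as the lowest Pachytene cell, yet the Metaphase I range lay inside the Pachytene range. Srsf7, a close relative of Srsf3, had medians of 124 and 147 CPM and a ratio of 0.20.

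Of the lower SR genes, Srsf12 rested on few cells. It had 33 and 59 counts, in 15 of the 40 cells, and 71.2% of its Metaphase I counts were in replicate 15. Its ratio was 0.89 with that cell and -0.29 without it. Srsf2, which binds exonic enhancers, had a count in all 40 cells, medians of 19.4 and 15.4 CPM and a ratio of -0.14, with a counting interval of the fold from 0.763 to 1.07. The last 1000 exonic bases of Srsf2 overlap Mettl23 and Mfsd11 on the opposite strand by 46%. Srsf4 had 103 and 78 counts, a ratio of -0.03 and medians of 5.30 and 1.35 CPM. The last 1000 exonic bases of Srsf4 lie wholly within the exons of Gm12992 on the opposite strand. With the strand setting not given in the sources used here, counts of these partners cannot be told apart.

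The A-type hnRNP genes encode abundant RNA binders with paired RNA recognition motifs. Hnrnpa2b1 took 77.7% of the counts of Hnrnpa1, Hnrnpa2b1, Hnrnpa3 and Hnrnpa0 in Pachytene and 78.8% in Metaphase I. Its ratio was 0.66, with 8098 and 9940 counts, but replicate 13 held 27.6% of the Metaphase I counts. Without that cell the ratio was 0.36, and from medians over cells it was 0.06. Hnrnpa3 had medians of 94.7 and 128 CPM and a ratio of 0.64, or 0.45 without replicate 13 and 0.43 from medians. All 3 of these values for Hnrnpa3 lay above 0, although the groups overlapped (42.4 to 176 CPM and 68.3 to 311 CPM).

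Hnrnpa1, the founding member of the A type, was low in these tags, at medians of 7.98 CPM in Pachytene and 14.7 CPM in Metaphase I. Metaphase I replicate 19, the cell with Sertoli markers, stood at 216 CPM and held 46.6% of the group's counts. The highest Pachytene cell had 47.7 CPM. The ratio of 0.69 became -0.10 without replicate 19 and 1.26 without Pachytene replicate 7. Hnrnpa1 is known for processed copies elsewhere in the genome, which leaves its count uncertain. Hnrnpa0, which has a single coding exon, had medians of 17.1 and 8.19 CPM and a ratio of -0.09, which was 0.06 without Pachytene replicate 5, -0.46 without Metaphase I replicate 13 and -0.98 from medians. Pachytene replicate 5 stood at 254 CPM of Hnrnpa0.

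Within the H/F group of G-rich RNA binders, Hnrnpf held about the same share in both groups, 50.2% (exact binomial interval 49.3 to 51.0) and 49.6% (48.7 to 50.6). Hnrnph1 held 23.7% and 25.9%, and Hnrnph3 25.6% and 23.8%. Hnrnph1 varied widely between cells, from 65.4 to 494 CPM in Pachytene and from 32.3 to 646 CPM in Metaphase I, with medians of 158 and 147 CPM. Hnrnph3 had medians of 178 and 146 CPM and a ratio of -0.03.

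Hnrnph2 (chrX:134601179-134607060, plus strand) is the X-linked relative of Hnrnph1. It had 72 and 67 counts in 14 cells, and both group medians were 0 CPM. Of its 139 counts, 130 fell in the 8 libraries with over 0.3% X-linked counts, where it ranged from 10.1 CPM in Pachytene replicate 3 to 33.4 CPM in Metaphase I replicate 3. The other 32 cells had at most 6.06 CPM, and most were listed at 0. That choice of libraries used all X-linked counts, Hnrnph2 among them, so the contrast is a description.

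Hnrnpl and Hnrnpll encode related regulators of alternative exons. Hnrnpl held 29.0% of their joint counts in Pachytene (interval 27.3 to 30.7) and 39.0% in Metaphase I (36.9 to 41.1). Over cells the share ran from 3.30% to 46.1% (median 27.8%) in Pachytene and from 18.2% to 95.5% (median 36.6%) in Metaphase I. The lowest and the highest share belonged to Pachytene replicate 7 and Metaphase I replicate 19. With the 8 libraries left out, Hnrnpl held 30.5% and 39.6%, and over cells its share ran from 3.85% to 46.1% (median 28.7%) and from 20.6% to 71.2% (median 36.6%). The groups overlapped, and the medians differed in the same direction as the summed counts. Hnrnpll had medians of 125 and 90.4 CPM and a ratio of -0.27, or -0.36 without replicate 13. Hnrnpl had medians of 49.9 and 44.2 CPM and a ratio of 0.37, which was 0.17 without Pachytene replicate 7 and -0.17 from medians.

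Hnrnpr, a relative of the SYNCRIP protein, had the highest ratio of the hnRNP genes, 0.88, with medians of 45.7 and 53.2 CPM. It was 0.64 without replicate 13, which held 24.6% of the Metaphase I counts. Hnrnpk, a KH-domain protein that binds C-rich RNA, had medians of 191 and 219 CPM and a ratio of 0.37, which was 0.20 without replicate 13.

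The lowest ratios of the set belonged to Hnrnpab, at -0.67, and Hnrnpd, at -0.54, related proteins that bind A/U-rich RNA. Hnrnpab (chr11:51600100-51606847, minus strand) ranged from 2.71 to 103 CPM in Pachytene (median 18.8) and from 0 to 80.8 CPM in Metaphase I (median 11.8). Hnrnpd ranged from 3.53 to 51.6 CPM (median 15.1) and from 0 to 60.6 CPM (median 10.2). The groups overlapped for both genes, and both Metaphase I medians were the lower. Pachytene replicate 7 held 39.0% of the Pachytene counts of Hnrnpab and 30.9% of those of Hnrnpd. Without this cell, one of those with spermatid markers, the ratios were -0.18 and -0.22. The last 1000 exonic bases of Hnrnpab overlap Phykpl on the opposite strand by 49.9%.

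The SF3 genes, which encode the branch site machinery of the U2 snRNP, had ratios above 0 in 8 of 9 cases, beside 49.9% of all genes. From medians over cells, Sf3a1 (-0.10), Sf3a3 (-0.14), Sf3b4 (-0.07) and Sf3b6 (-0.01) lay below 0 and the others above. Sf3a3 stood at -0.07 without replicate 13. Without the 8 libraries over 0.3% X-linked counts, Sf3b3 stood at -0.03 and Sf3b4 at 0.01. Sf3b1, the large subunit that contacts the branch site, had medians of 283 and 344 CPM, with ranges of 36.6 to 509 CPM and 96.9 to 574 CPM, and a ratio of 0.53. Sf3b2, another SF3b subunit, had medians of 282 and 346 CPM and a ratio of 0.35. The groups overlapped for both. Sf3b5 had medians of 126 and 146 CPM and a ratio of 0.40. For these 3 genes the Metaphase I median was the higher, and the ratio without replicate 13 stayed above 0, at 0.47, 0.29 and 0.25.

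Sf3b6, the subunit known as p14, had a ratio of 0.60, with nearly equal medians of 26.1 and 25.8 CPM and 23.7% of its Metaphase I counts in replicate 13. Of the SF3 genes it had the highest ratio with all libraries, but it stood at 0.38 without that cell, below Sf3b1. Sf3b4, an RNA-binding subunit, had the one ratio below 0, -0.23 (fold 0.851, interval 0.798 to 0.908), with medians of 123 and 117 CPM. Pachytene replicate 7 held 22.8% of the Pachytene counts of Sf3b4, and without it the ratio was -0.06. Sf3a3 had medians of 132 and 120 CPM and a ratio of 0.03.

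Among Sm core genes, Snrpb (chr2:130171414-130179403, minus strand) had the highest ratio, 0.83, from 1635 and 2269 counts. It ranged from 12.1 to 255 CPM in Pachytene (median 89.9) and from 15.1 to 421 CPM in Metaphase I (median 106). The groups overlapped apart from the 2 highest Metaphase I cells, replicates 13 and 14, at 421 and 263 CPM. Without replicate 13 the ratio was 0.53. Snrpd2 and Snrpd1, further Sm proteins, had ratios of 0.01 and 0.12, which were -0.03 and -0.08 without replicate 13. Snrpg had a ratio of -0.04, or 0.04 without that cell, with medians of 97.8 and 95.6 CPM. Snrpe had a ratio of 0.42, which was 0.16 without replicate 13 and -0.17 from medians over cells (85.9 CPM in Pachytene and 76.4 CPM in Metaphase I).

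Snrpc, Snrpa and the U2 proteins Snrpb2 and Snrpa1 are specific to single snRNPs. Snrpc had a ratio of -0.12, with a range of 42.4 to 521 CPM in Pachytene and 116 to 370 CPM in Metaphase I. Snrpa, the U1 protein, held 35.1% of the joint counts of Snrpa and its U2 relative Snrpb2 in Pachytene (33.4 to 36.8) and 37.1% in Metaphase I (35.4 to 38.9). These intervals overlap. Snrpert, a copy of Snrpe on chromosome 2, had 52 counts, 1.36% and 1.64% of the joint counts with Snrpe, and near-identical sequence makes that split uncertain.

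Genes near the minimum of 20 counts had features in their coordinates. Snrpf, an Sm core protein, was the lowest gene retained, with 37 counts in 17 cells. Of its exonic bases, 85.4% lie under exons on the opposite strand, of Ccdc38, which had 20920 counts, and of 4933408J17Rik. Snrpn, the relative of Snrpb that is known for brain expression and imprinting, had 5 counts, 4 of them in Metaphase I replicate 13. Hnrnpu had 5 counts over 4 cells, and Srsf1, the SR protein first purified as a splicing factor, was listed at 0 in every cell.

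Srsf1 (chr11:88047373-88053755) and Hnrnpu (chr1:178321108-178337797) were the only genes of the 53 whose exons stand in the table on a chromosome and again on a second sequence outside the chromosomes. Of 253 coding genes with such a repeat, 222 (87.7%) were under 20 counts and 175 (69.2%) were at 0. Of 21280 coding genes on 1 sequence, 44.1% were under 20 counts and 27.2% at 0. The splicing genes Snrnp40, Usp39, Sf1 and Celf1 and the phosphatase gene Ppp1ca also stand on 2 sequences, and each had at most 5 counts. The part of the repeat in these low counts was not tested, and no upper limit on expression is drawn from the zeros.

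Part of the set varied together from cell to cell. Over the 946 pairs of the 44 genes with at least 500 counts, the median Spearman correlation over 40 cells was 0.21, and 19.1% of pairs were above 0.5. Over pairs of all 6726 genes at that count, the median was 0.03 and 5.71% were above 0.5. All points share the total by which each cell was scaled, and the values are a description. Over the 32 cells not above 0.3% X-linked counts, the median for the set was 0.18, with 15.5% above 0.5.

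Hnrnpa2b1 followed the summed level of the other 49 genes most closely, with a rho of 0.95 over 40 cells and 0.93 over 32. Its level was also the highest of the set, and counting noise was not removed from these values. Srsf10, Snrpb, Hnrnpm and Hnrnph1 followed at 0.81, 0.80, 0.79 and 0.79. The closest pair was Hnrnpa2b1 with Hnrnpl, at 0.83. Srsf5, an SR protein, had a rho of 0.18 over 40 cells and 0.67 over 32.

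Snrpg had the lowest rho with the rest of the set, -0.57 over 40 cells and -0.38 over 32, and its lowest pair was with Hnrnph1, at -0.68. Sf3b4 stood at -0.53, but at -0.17 over 32 cells. Hnrnpab went from -0.43 to -0.02 and Hnrnpd from -0.31 to 0.09. By group, the rho of Hnrnpd was 0.12 over the Pachytene cells and -0.66 over the Metaphase I cells. In the same order, it was -0.60 and -0.43 for Sf3b4, and -0.49 and -0.32 for Hnrnpab. The part of the 8 libraries in these values was not tested. From 40 to 32 cells, Sf3b4 and Hnrnpab thus became less negative and Hnrnpd turned positive, whereas Snrpg and Snrpb2 (-0.24 and -0.37) were negative over both. Snrpc and the Sm gene Snrpd3 went the other way, from 0.12 and 0.18 over 40 cells to -0.30 and -0.34 over 32.

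**Figure D3:**
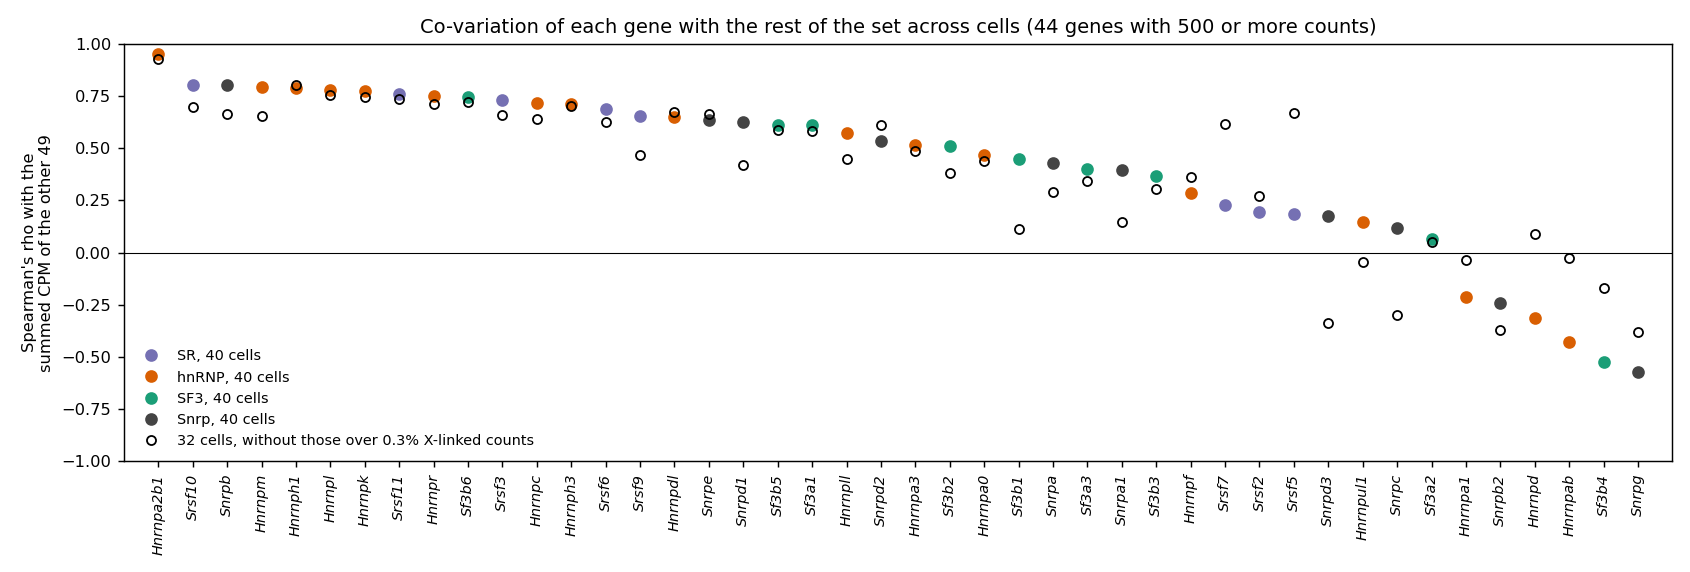
Spearman's rho over cells between the level of each gene and the summed CPM of the other 49, for the 44 genes with at least 500 counts; filled points use 40 cells and are coloured by family, open points use the 32 cells not over 0.3% X-linked counts. Hnrnpa2b1 stands highest at 0.95, and Snrpg lowest at -0.57.

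The summed level of the set ran with some stage transcripts within both groups. Its rho with Piwil1, a gene of the pachytene stage, was 0.84 over 40 cells, 0.82 over the 20 Pachytene cells and 0.84 over the 20 Metaphase I cells. With Ccna1, the cyclin A1 gene of late spermatocytes, it was -0.64 over 40 cells, -0.45 over the Pachytene cells, -0.80 over the Metaphase I cells and -0.83 over the 32. With the summed elongating spermatid markers it was -0.85 over 40 cells and -0.76 over the 32. With Aurka, the Aurora A kinase gene, it was -0.16 over 40 cells, 0.08 over the Pachytene cells, -0.48 over the Metaphase I cells and -0.76 over the 32. The rho with the total count of a cell was 0.11. Ccnb1, which was chosen after its values were seen, gave -0.67.

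Cells at either end show the range. Metaphase I replicate 13 had the highest summed level, 10220 CPM, with Piwil1 at 447 CPM and Ccna1 at 10.7 CPM. Metaphase I replicate 14 had 9243 CPM with Ccna1 at 31.4 CPM, and Pachytene replicate 14 had 8976 CPM with Ccna1 at 48.6 CPM. The lowest was Metaphase I replicate 3, with 3326 CPM, Piwil1 at 12.9 CPM and spermatid markers at 5727 CPM. The 6 lowest cells of all 40 were among the 8 with over 0.3% X-linked counts. Cells of both names thus stood at both ends.

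**Figure D4:**
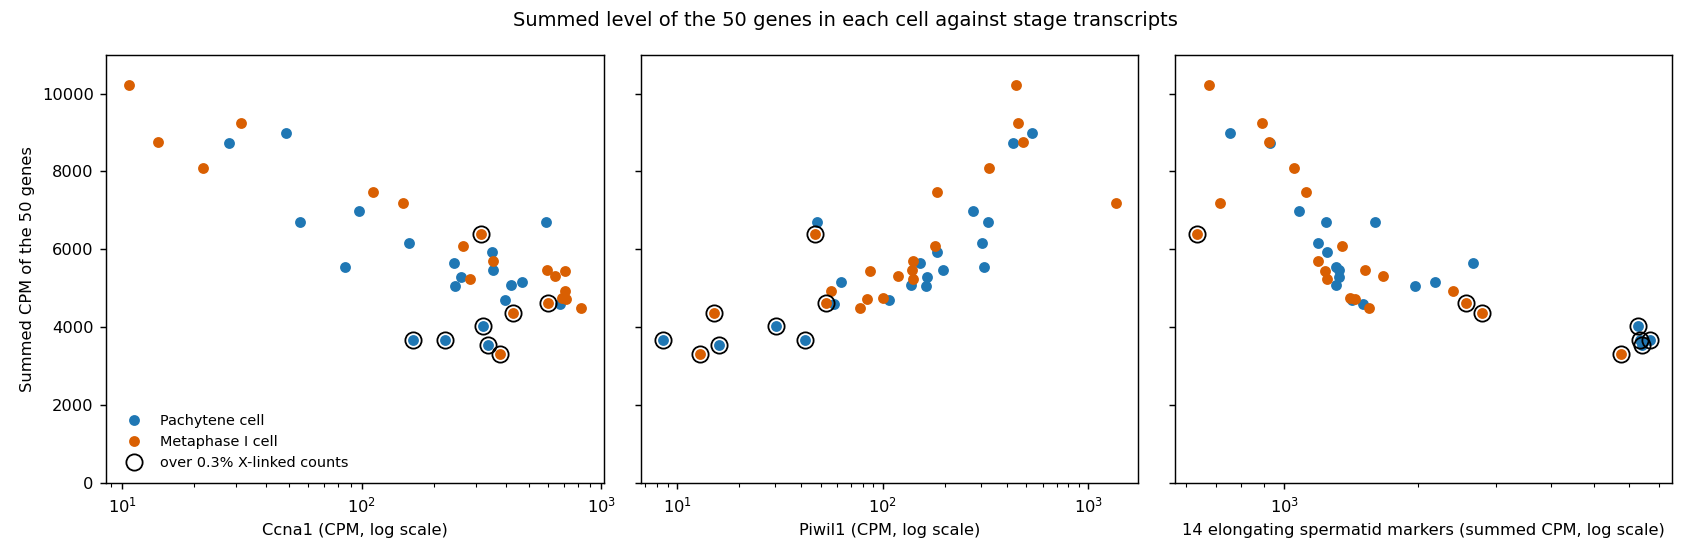
Summed CPM of the 50 genes in each cell against Ccna1, Piwil1 and the summed level of 14 elongating spermatid markers, each on a log axis; points are cells coloured by group, and open rings mark the 8 libraries over 0.3% X-linked counts. The level is lower at higher Ccna1 (rho -0.64) and spermatid markers (-0.85) and higher at higher Piwil1 (0.84), with both groups spread along each relation.

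Further splicing genes, held in 12 lists of other snRNP proteins, U2 and LSm factors, assembly factors, helicases, kinases and regulators, were measured the same way. Of 163 listed genes, 151 were measured, and their median ratio was 0.24. Of these, 13 were over 2-fold higher in Metaphase I (8.61%, beside 8.49% of all genes) and 1, the X-linked assembly gene Gemin8, was over 2-fold lower (beside 9.81% of all genes). Without the 8 libraries over 0.3% X-linked counts, 6 were higher and 1 was lower, beside 5.65% and 3.69% of all genes. The lower gene was then the assembly gene Gemin4, at -1.26 (-0.53 with all libraries), and Gemin8 went from -1.59 to -0.07. Without Metaphase I replicate 13, 7 were higher and 1 was lower, beside 7.56% and 8.45% of all genes. The rho between the summed level of these genes and that of the 50 was 0.94 over 40 cells.

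By list, medians ran from 0.07 for snRNP assembly and import factors to 0.66 for SR-related proteins, which were -0.03 and 0.39 without replicate 13. Of the latter, Son and Tra2b, which have arginine/serine domains, had ratios of 0.33 and 0.45. The kinases that phosphorylate SR proteins had a median of 0.21, and Srpk1 and Srpk2, the kinases of this list at the highest levels, had ratios of -0.06 and 0.18 with group levels of 533 and 511 CPM and of 179 and 203 CPM. Exon junction complex genes had a median of 0.51, which was 0.22 without replicate 13.

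The genes over 2-fold higher were Prpf3, Htatsf1, Lsm6, Gemin2, Phax, Cwc22, Rnps1, Dyrk1a, Scaf1, Scaf11, Raly, Mbnl1 and Mbnl2. Htatsf1 (X-linked), Mbnl1 and Mbnl2 had 93.0%, 100% and 92.7% of their Metaphase I counts in replicate 19, the cell with Sertoli markers, and without the 8 libraries their ratios were 0.12, -0.66 and 0.34. Prpf3, a tri-snRNP protein, had a ratio of 1.08, which was 0.68 without replicate 13. Lsm6, Gemin2, Phax, Rnps1 and Scaf1 also came under 2-fold without that cell, at 0.74, 0.84, 0.73, 0.74 and 0.59. Without the 8 libraries, Lsm6, Rnps1, Dyrk1a, Scaf1 and Raly came under it, at 0.88, 0.74, 0.77, 0.78 and 0.93, and Prpf39 passed it, at 1.20. Cwc22, which hands the exon junction complex to the spliceosome, had 1.39, and 1.55 without replicate 13. The catalytic subunits that okadaic acid inhibits had 4 measured genes of 5, with a median ratio of 0.38, which was 0.11 without the 8 libraries.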

How the data were processed

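The authors deposited 1 table of raw counts, 55492 genes by 40 libraries, whose file headers give exon coordinates in the layout of featureCounts. UMI-tools, STAR, featureCounts and the GRCm38 build are named, with no version, in the submitters' processing notes, per the labels. The strand setting, the annotation release and any removal of PCR copies were not given in the sources used here. Every value column was matched to its library by title.

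For each group, a gene's counts over all cells were divided by the total over those cells (CPM). The log2 ratio has a pseudocount of 1 CPM. Fold intervals are exact conditional binomial at 95% and share intervals exact (Clopper-Pearson). They cover counting error only, and if the table counts reads rather than molecules they are too narrow. Groups were compared without a test. Medians and ranges over cells are description. The members and all lists were chosen with earlier results of these data known. Named were, in each family, the 3 highest mean levels and the 2 highest and 2 lowest ratios, every gene over 2-fold, X-linked members, those next to the count minimum and fixed paralog sets. Of the other splicing lists, genes over 2-fold and the 2 highest levels of each list could be named. Genes named outside these rules, among them Srsf10, Srsf5, Hnrnpm, Snrpd3, Snrpe and Snrpg, were chosen after their values were seen.

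X-linked libraries were those with over 0.3% of counts from the X chromosome. Among 380 pairs of libraries within a group, none agreed within sampling noise (lowest chi-square per degree of freedom 2.69). Alternatives were other scalings (TMM of edgeR 4.0.16 and size factors of DESeq2 1.42.0, used only for scaling), equal weight per cell, medians, pseudocount, count minimum, thinning and omissions of libraries. Biotypes came from GENCODE M21 and upstream windows from RefSeq, GRCm38.p6. Python 3.11.15, pandas 2.3.3 and scipy 1.17.1 were used. The ratio and interval code was run on Poisson counts simulated without spread between the cells of a group. How the intervals hold under such spread was not tested.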

Additional observations from a re-analysis of the deposited data

How the results depend on the processing

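No paired analysis was possible because the values come from no test and replicate numbers do not tie the cells of the groups. Across 14 alternatives and 40 omissions of 1 library, the all-gene median ratio moved by less than 0.1. The 1 member over 2-fold higher became 0 with medians over cells, size factors, thinning to 340000 counts (which also leaves out 1 Pachytene and 3 Metaphase I cells below that depth), or without the 8 libraries over 0.3% X-linked counts and Metaphase I replicate 13. With those 4 cells left out and no thinning it was 1 again, Srsf6. Both of these omissions were chosen after seeing the data. With medians over cells 1 member, Srsf4, was over 2-fold lower, and the ratio of Srsf6 reversed to -0.42. Omitting single libraries gave 1 to 3 members higher and 0 lower. The 1 member higher was Srsf12 and not Srsf6 without Metaphase I replicate 13, and Hnrnpa1 with equal weight per cell or TMM.

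With medians over cells, the median ratios were 0.0016 for the 50 genes, -0.013 for SR, 0.0032 for hnRNP, 0.16 for SF3, -0.0158 for Snrp and 0.015 for other splicing genes. Under TMM and size factors they were 0.073 and 0.075 for the 50 genes and 0.051 and 0.057 for hnRNP genes. The hnRNP median was also 0.093 with equal weight per cell, 0.085 without the deepest library of each group and 0.084 without the 8 libraries and replicate 13, an omission which gave 0.11 for SF3 genes. Thinning gave 0.040 for SR genes. The summed level of the 50 had a log2 ratio of 0.13 with equal weight, 0.044 with the summed medians of the genes, 0.10 with TMM, 0.095 with size factors, 0.30 with totals free of mitochondrial and ribosomal protein genes, 0.23 without the 8 libraries, 0.098 without the deepest, 0.15 thinned, 0.29 with the 4 shallow cells omitted and no thinning, and 0.12 without the 8 and replicate 13. The causes were not tested.

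Omitting single libraries gave ranges of 0.15 to 0.28 for the median of the 50, 0.11 to 0.26 for SR, 0.12 to 0.34 for hnRNP, 0.21 to 0.38 for SF3, 0.03 to 0.19 for Snrp, 0.19 to 0.29 for other splicing genes and 0.17 to 0.33 for the summed level. Depth limits the low genes: thinned cells held counts of a median of 46 Pachytene and 45 Metaphase I members.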
